A study of Mus musculus with 12 samples.

Results

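The 10 genes described here form the core of the circadian clock: Clock and Arntl (also called Bmal1), Per1, Per2 and Per3, Cry1 and Cry2, Nr1d1 and Nr1d2, and Dbp. They were taken by symbol from a table of FPKM (reads scaled to the length of the transcript and to the mapped reads of the library) for 24327 genes, and 10 of 10 were found. The table covers the choroid plexus (ChP) of the lateral ventricles (LV), the epithelium that makes most cerebrospinal fluid, in male mice kept under a cycle of 12 h light and 12 h dark. The mice carried 1 copy each of FoxJ1:cre and of the floxed EGFP:L10a allele. They were 60 days old by the labels and 8 weeks by the methods, and were sampled 2 h into the light phase (9 a.m.) or 2 h into the dark phase (9 p.m.). EGFP-tagged ribosomes were pulled down by translating ribosome affinity purification, giving RPL10A-associated RNA (TRAP), and the unbound RNA was kept as the supernatant. Each of the 4 groups of time and fraction held 3 libraries, each from a pool of 3 mice. TRAP and supernatant libraries of the same time and number share an animal number in the labels, and were treated as the same pool. FoxJ1:cre acts in ciliated epithelium, so TRAP is meant to favour those cells while the supernatant holds RNA of every cell type in the dissected tissue. All groups carried both alleles, and mice without Cre were not analysed here.

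The clock is a feedback loop of transcription. CLOCK and ARNTL bind E-box motifs as a pair and switch on the Per, Cry, Nr1d and Dbp genes. PER and CRY proteins then return to the nucleus and inhibit CLOCK and ARNTL, the NR1D (REV-ERB) receptors repress Arntl, and DBP activates genes with D-box motifs, Per genes among them. In peripheral tissues of the mouse, Arntl RNA runs roughly opposite in phase to Per2 RNA.

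The motifs named for this loop were looked up in promoters from RefSeq (GRCm38.p6, 250 bases before to 50 bases after each transcript start). Of the 10 members, 9 had an entry there, with 13 entries in all, and Per2 had none. The letters searched on both strands were CACGTG (E-box), AACGTG (E-prime box), TTATGTAA (D-box) and TAGGTCA (the core bound by NR1D receptors), and 6 members held at least 1 of them. The share of all genes with at least 1 of them was not counted. Among 32851 promoters of the same length, 7.15% held CACGTG, 4.685% AACGTG, 0.938% TTATGTAA and 2.61% TAGGTCA. The windows below are 30 bases long on the strand of the gene, with the motif in capitals. A match describes letters only, and shows neither a bound site nor a cause.
Per1 E-box, chr11:69098771-69098800: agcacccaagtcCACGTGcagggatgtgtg
Cry1 E-box, chr10:85185097-85185126: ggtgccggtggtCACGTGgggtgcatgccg
Cry2 E-prime box, chr2:92434218-92434247: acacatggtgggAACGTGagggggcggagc
Nr1d1 E-prime box, chr11:98775388-98775417: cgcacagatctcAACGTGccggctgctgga
Per3 D-box, chr4:151044852-151044881: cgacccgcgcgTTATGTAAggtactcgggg
Arntl receptor core, chr7:113207530-113207559: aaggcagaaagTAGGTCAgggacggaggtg
The first base of the motif lay at -166 from the transcript start in Per1, -60 in Cry1, -166 in Cry2, -28 in Nr1d1, -205 in Per3 and 30 in Arntl. Per1 had 2 entries, and the one with the E-box lies inside its locus (chr11:69095217-69109960), downstream of the outermost start. Cry1 held AACGTG as well, at -79, and Per3 held TTATGTAA again at -158. In the windows of Clock, Nr1d2 and Dbp none of these letters was found.

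The libraries were uneven. Genes above 1 FPKM numbered 6639 in TRAP 9 a.m. replicate 3 and 7711 to 10540 in the other 11 libraries. Of 2940 genes with a median above 20 FPKM, 0 to 53 were listed at 0 in those 11 libraries and 107 in TRAP 9 a.m. replicate 3, so a member at 0 is given here as listed at 0, without a group mean ± SD in the text. Depth is unknown, since the files hold no counts. Markers of ChP epithelium (8 of 8, Ttr among them) summed to 23827 to 54538 FPKM, with each of the 8 above 0 in each of the 12 libraries. Marker sums differed between groups for other cell types, and their part in the results was not tested: stroma (7 genes) reached 7.74 to 22.0 FPKM in TRAP and 35.8 to 94.5 in the supernatant, and macrophages (8 genes, Cd68 at 0 throughout) reached 20.1 to 62.2 in the supernatant at 9 p.m. against 6.18 to 13.6 at 9 a.m. Hemoglobin genes of erythrocytes (3 genes) reached 11.3 to 106 FPKM in the supernatant at 9 p.m. and at most 1.09 at 9 a.m. Hepatocyte markers (8 genes, Alb among them) summed to 842 FPKM in TRAP 9 a.m. replicate 3 and to 0.636 to 146 in the other 11 libraries. Within TRAP the stromal sum was 7.74 to 13.02 at 9 p.m. and 13.3 to 22.0 at 9 a.m. The epithelial sum itself was 36036 to 54538 in TRAP at 9 p.m. and 23827 to 34794 at 9 a.m. (exact permutation test, two-sided, p = 0.1, the smallest that 3 against 3 allow). Ttr made up most of it: without Ttr the sum of the other 7 markers was 3024 to 3239 in TRAP at 9 p.m. and 2758 to 3492 at 9 a.m., and of the 8 markers only Ttr was higher at 9 p.m. without overlap and only Kl lower. In the supernatant the epithelial sum was 24237 to 40152 at 9 a.m., overlapping TRAP, and 26412 to 33591 at 9 p.m., below TRAP. Without Ttr it was 2705 to 3079 at 9 a.m. and 2859 to 3269 at 9 p.m., overlapping TRAP at both times. In such bulk samples, fewer cells of a type and less RNA per cell cannot be told apart.

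All 10 members passed the filter of a mean above 1 FPKM over the 12 libraries. Mean FPKM over the 12 libraries, which is corrected for transcript length and counts listed zeros as 0, ran from 36.8 for Dbp and 36.8 for Clock through 26.9 for Nr1d2, 23.1 for Per1, 15.4 for Cry2, 11.9 for Cry1, 10.6 for Nr1d1 and 9.12 for Per2 to 8.11 for Per3 and 5.74 for Arntl. Clock had the highest group mean at 9 a.m. in both fractions. At 9 p.m. the highest means were those of Dbp in TRAP and of Nr1d2 in the supernatant, and Arntl had the lowest in both. Of the 36 pairs of neighbours in the order within the 4 groups, 32 had library values that overlapped. The exceptions were Dbp above Per1 and Nr1d1 above Arntl in TRAP at 9 p.m., and Clock above Nr1d2 and Per3 above Dbp in the supernatant at 9 a.m.

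**Figure D1:**
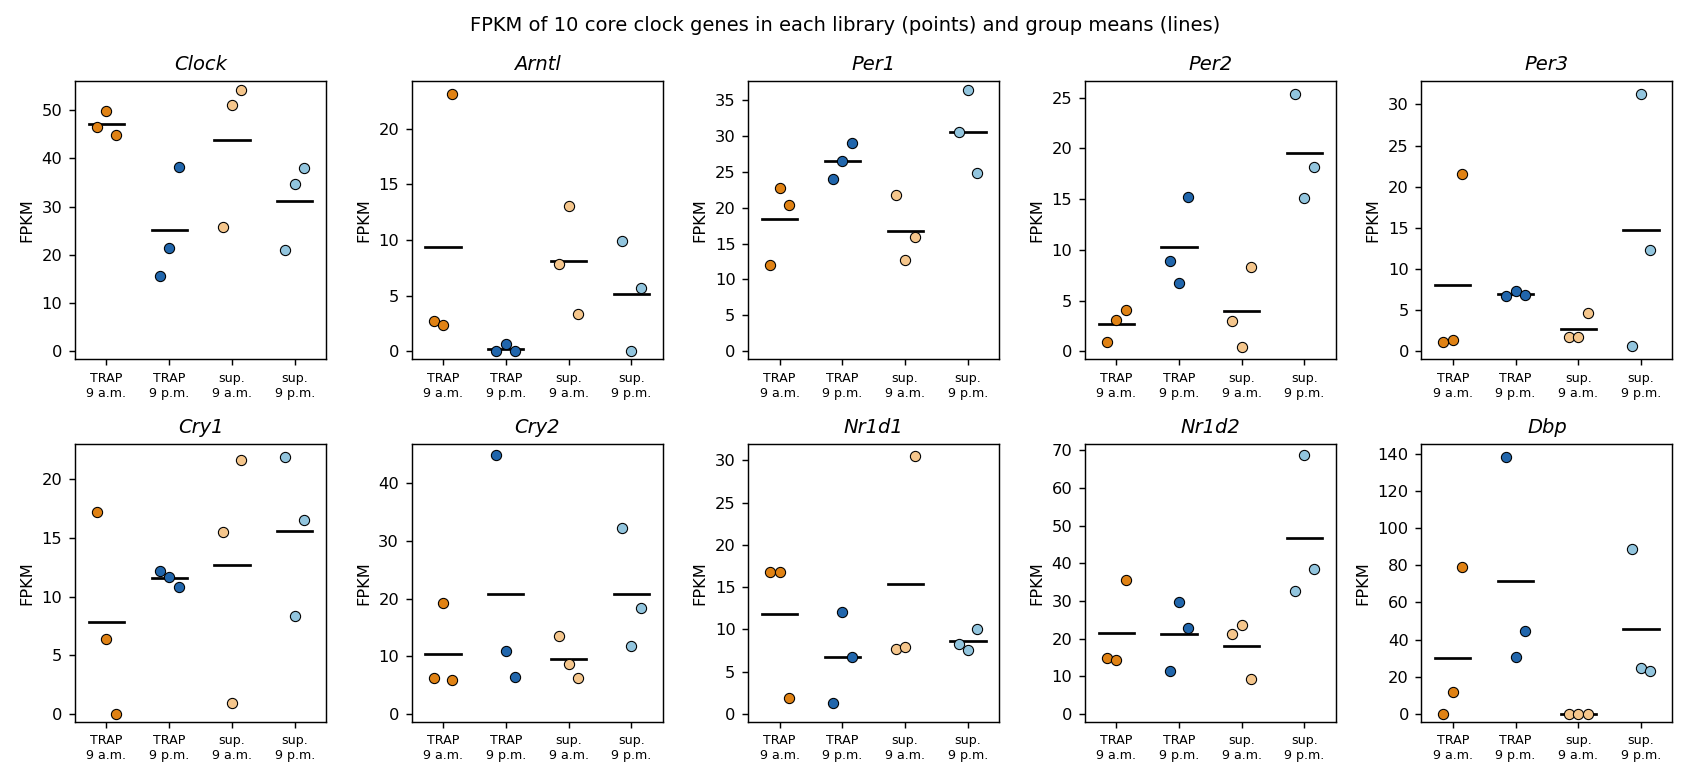
FPKM (linear axis, from 0) of the 10 members in each of the 12 libraries; points are libraries and lines are group means of 3. Dbp lies near 0 in the 3 supernatant libraries at 9 a.m., Arntl near 0 in the 3 TRAP libraries at 9 p.m., and Per2 is higher in every 9 p.m. library than in the 9 a.m. libraries of the same fraction.

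The comparison of 9 p.m. with 9 a.m. asks which clock transcripts differ between the start of the dark and of the light phase, among RPL10A-associated RNA, in the unbound RNA, and in the mean of both fractions of a pool. Of the 10 members, 7 were higher in mean log2(FPKM + 1) at 9 p.m. and 3 lower (Clock, Arntl and Nr1d1) in all 3 comparisons, against 56.9%, 51.8% and 56.2% of all genes above 0. In TRAP the 7 include Nr1d2 at 0.006, and the count was 6 under quantile normalization, with coding genes rescaled and without some single libraries. It ran from 6 to 8 in the supernatant over the alternatives and stayed at 7 in pool means. The comparison of pool means uses the same libraries as the other 2 and is no separate evidence. The median log2 fold change of the members was 0.60 in TRAP, 0.92 in the supernatant and 0.76 in pool means, and that of all genes tested was 0.16, 0.03 and 0.09. No member passed the test (limma, a log2 fold change beyond 0.4 in either direction with an adjusted p under 0.05), in which 0% of 10563 genes were called in TRAP, 0.00903% of 11075 in the supernatant and 0% of 11156 in pool means. At an unadjusted p under 0.05, 0 members were called in TRAP, where the background was 2.95% of genes higher and 1% lower, and at most 2 under any alternative, as with coding genes rescaled, where both were lower. In the supernatant there were 3, all higher (background 1.79% higher and 1.49% lower), and 1 without supernatant 9 p.m. replicate 3. Among the 3 was Dbp, which passed the filter there only through its 9 p.m. libraries. In pool means there were 2 higher (3.61%) and 1 lower (1.55%). The macrophage and hemoglobin marker sums were also higher in the supernatant at 9 p.m., and their part in these values was not tested.

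**Figure D2:**
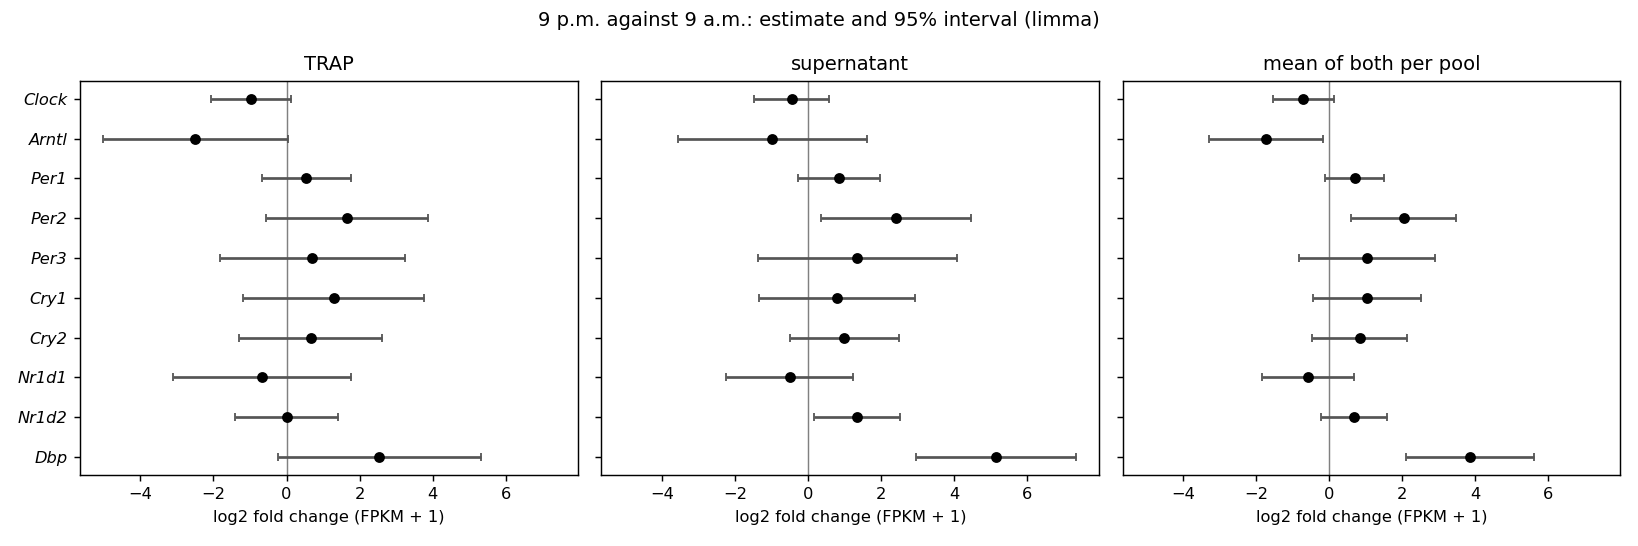
Log2 fold change of FPKM + 1 at 9 p.m. against 9 a.m. (x axis) for each member, with 95% intervals from limma, in TRAP, in the supernatant and in the mean of both per pool. The intervals of Dbp and Per2 lie above 0 in the supernatant and in pool means, that of Nr1d2 above 0 in the supernatant, and that of Arntl below 0 in pool means; in TRAP every interval covers 0.

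Groups did not overlap for a few members. In TRAP, Per1 and Per2 were higher at 9 p.m. in 3 of 3 libraries against 3 (5.68% of all genes), and Clock and Arntl lower (2.93%). In the supernatant Per1, Per2, Nr1d2 and Dbp were higher without overlap (4.9%) and 0 members lower (3.79%). In pool means Per1, Per2, Nr1d2 and Dbp were higher (6.65%) and Arntl lower (4.04%). The 2 higher members in TRAP became 1 under quantile normalization and when coding genes were rescaled to equal sums, 3 without TRAP 9 a.m. replicate 1 or 2, and 4 without replicate 3, where groups of 2 against 3 separate more easily for any gene. The 2 lower members became 3 without replicate 3, and 1 with a filter at 5 FPKM, which Arntl did not pass. In pool means the 1 lower member became 2 with a pseudocount of 5, under quantile normalization, and without pool 1 or 3 of 9 a.m. or pool 2 or 3 of 9 p.m., and in the supernatant 0 became 1 without 9 a.m. replicate 1.

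Clock (chr5:76209868-76304792 in mm10, minus strand) encodes the histone acetyltransferase partner of the activator pair, and is known to cycle little in most tissues. Its TRAP libraries at 9 a.m. had 46.5, 49.9 and 44.8 FPKM, and those at 9 p.m. had 15.7, 21.4 and 38.2 (means 47.0 ± 2.59 and 25.1 ± 11.7, SD, n = 3). In the supernatant the values were 25.8, 51.2 and 54.1 at 9 a.m. and 21.02, 34.6 and 37.9 at 9 p.m. The TRAP libraries at 9 p.m. all lay below those at 9 a.m., while the supernatant libraries of the 2 times overlapped. The log2 fold change was -0.97 in TRAP (95% interval -2.07 to 0.13, limma adjusted p = 0.941) and -0.45 in the supernatant (-1.48 to 0.59, adjusted p = 0.970).

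Arntl (chr7:113207465-113314126, plus strand) encodes the obligate partner of CLOCK, without which the clock stops. Its FPKM in TRAP were 2.75, 2.34 and 23.1 at 9 a.m., while at 9 p.m. it was listed at 0, 0.675 and 0. Supernatant libraries gave 7.88, 13.1 and 3.38 at 9 a.m. and 9.93, 0 and 5.66 at 9 p.m. The TRAP values at 9 p.m. were below each at 9 a.m., but replicates 1 and 3 rest on a listed 0, in libraries where 13 and 26 of the 2940 abundant genes were listed at 0 too. In TRAP, Arntl passed the filter of a mean above 1 FPKM only through its 9 a.m. libraries. The supernatant groups overlapped widely. On the log2(FPKM + 1) scale the difference was -2.50 in TRAP (-5.03 to 0.04, limma adjusted p = 0.941), -0.97 in the supernatant (-3.55 to 1.61, adjusted p = 0.970) and -1.74 in pool means (-3.30 to -0.17, adjusted p = 0.913). Without TRAP 9 a.m. replicate 3, which holds the highest value, the TRAP difference was -1.57, and without supernatant 9 p.m. replicate 2, the library listed at 0, the supernatant difference was 0.06. With 0.1 and 5 in place of the added 1, the TRAP difference was -4.78 and -1.17, and that in the supernatant -1.997 and -0.43.

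The Period genes encode the PER proteins, of which PER1 and PER2 carry the negative limb. Per1 (chr11:69095217-69109960, plus strand) had a coefficient of variation of 9.60% to 30.6% in the 4 groups, with TRAP values of 12.1, 22.8 and 20.4 FPKM at 9 a.m. and 23.9, 26.6 and 29.0 at 9 p.m. Supernatant libraries measured 21.8, 12.7 and 15.9 at 9 a.m. and 30.6, 36.4 and 24.8 at 9 p.m. Both fractions were higher at 9 p.m. without overlap. The means were 18.4 ± 5.63 and 26.5 ± 2.55 in TRAP and 16.8 ± 4.60 and 30.6 ± 5.81 in the supernatant (SD, n = 3), with log2 fold changes of 0.55 (-0.67 to 1.76, limma adjusted p = 0.941) and 0.84 (-0.28 to 1.96, adjusted p = 0.970). The TRAP value was 0.28 without TRAP 9 a.m. replicate 1 and 0.32 with coding genes rescaled.

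Per2 (chr1:91415982-91459324, minus strand), whose RNA is a common readout of clock phase, had 0.906, 3.12 and 4.05 FPKM in TRAP at 9 a.m. and 8.94, 6.74 and 15.2 at 9 p.m. The supernatant had 3.04, 0.449 and 8.30 at 9 a.m. and 25.4, 15.1 and 18.2 at 9 p.m. Every 9 p.m. library exceeded every 9 a.m. library of its fraction. Means were 2.69 ± 1.62 and 10.3 ± 4.40 in TRAP and 3.93 ± 3.999 and 19.5 ± 5.29 in the supernatant. The log2 fold change was 1.66 in TRAP (-0.55 to 3.87), 2.41 in the supernatant (0.36 to 4.46) and 2.03 in pool means (0.60 to 3.47), with limma adjusted p of 0.941, 0.970 and 0.833. Over the alternatives the fold change lay between 0.98 and 2.05 in TRAP and between 1.53 and 3.06 in the supernatant, above 0 in each.

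Per3 (chr4:151003652-151044665, minus strand), the least essential of the Period genes, had 1.10, 1.42 and 21.6 FPKM in TRAP at 9 a.m. and 6.72, 7.35 and 6.79 at 9 p.m. The supernatant held 1.72, 1.77 and 4.67 at 9 a.m. and 0.675, 31.3 and 12.2 at 9 p.m. A single high library at 9 a.m. in TRAP and a single low one at 9 p.m. in the supernatant made the groups overlap in both fractions. Its log2 fold change was 0.71 in TRAP (-1.83 to 3.25, limma adjusted p = 0.965) and 1.36 in the supernatant (-1.37 to 4.08, adjusted p = 0.970). Single libraries moved both: the TRAP value was 1.82 without TRAP 9 a.m. replicate 3, 0.10 without replicate 1 and 0.21 without replicate 2, and the supernatant value was 0.43 without 9 p.m. replicate 2 and 2.56 without 9 p.m. replicate 1.

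Cryptochromes are the strongest repressors of CLOCK and ARNTL. Cry1 (chr10:85131700-85185064, minus strand) had 17.2, 6.37 and 0 FPKM in TRAP at 9 a.m. and 12.2, 11.7 and 10.8 at 9 p.m., and in the supernatant 15.5, 0.949 and 21.6 at 9 a.m. and 21.9, 8.33 and 16.6 at 9 p.m. Cry2 (chr2:92403646-92434043, minus strand) had 6.25, 19.3 and 5.93 and then 45.0, 10.9 and 6.35 in TRAP, and 13.6, 8.65 and 6.33 and then 32.4, 11.7 and 18.4 in the supernatant. The times overlapped in both fractions for both genes. Cry1 gave log2 fold changes of 1.29 (-1.19 to 3.78) in TRAP and 0.79 (-1.34 to 2.92) in the supernatant, and Cry2 gave 0.66 (-1.29 to 2.61) and 0.999 (-0.50 to 2.50), with limma adjusted p of 0.941 or above. Single libraries decided these values: Cry1 in TRAP was 0.11 without TRAP 9 a.m. replicate 3, and Cry2 in TRAP was -0.10 without TRAP 9 p.m. replicate 1. In the supernatant Cry1 was -0.31 without 9 a.m. replicate 2. A transcript on the other strand, D930015M05Rik, shares 295 of the 6320 exon bases of Cry2; it was above 1 FPKM in 1 library, with 14.1 FPKM in supernatant 9 a.m. replicate 2.

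The NR1D receptors repress Arntl and are themselves strong E-box targets. Nr1d1 (chr11:98767932-98775333, minus strand) had 16.7, 16.8 and 1.91 FPKM in TRAP at 9 a.m. and 1.24, 12.1 and 6.78 at 9 p.m. In the supernatant it had 7.67, 7.95 and 30.5 at 9 a.m. and 8.21, 7.51 and 10.003 at 9 p.m. The times overlapped in both fractions, with log2 fold changes of -0.67 (-3.11 to 1.77) in TRAP and -0.50 (-2.24 to 1.24) in the supernatant (limma adjusted p = 0.965 and 0.978). These were 0.05 without TRAP 9 p.m. replicate 1 and 0.11 without supernatant 9 a.m. replicate 3. Nr1d1 shares 263 of 3077 exon bases with Thra, a thyroid hormone receptor gene on the other strand, which had 13.7 to 77.6 FPKM, and reads of shared bases cannot be told apart because the strand setting is not given in the sources used here.

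Nr1d2 (chr14:18204054-18239127, minus strand) is the paralog of Nr1d1, and no test compared these genes with each other. Its TRAP values were 14.8, 14.4 and 35.6 FPKM at 9 a.m. and 11.3, 29.7 and 22.8 at 9 p.m. Its supernatant values were 21.1, 23.6 and 9.34 at 9 a.m. and 32.6, 68.8 and 38.5 at 9 p.m. The supernatant libraries at 9 p.m. were all above those at 9 a.m., and the TRAP libraries of the 2 times were mixed. The log2 fold change was 1.35 in the supernatant (0.17 to 2.52, limma adjusted p = 0.970) and 0.01 in TRAP (-1.41 to 1.42, adjusted p = 0.999), where it turned to -0.03 under quantile normalization and -0.22 with coding genes rescaled. The difference between these 2 changes, tested as the interaction of time and fraction, was -1.34 (-3.10 to 0.42, adjusted p = 0.988).

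Dbp (chr7:45705088-45710203, plus strand) encodes a D-box activator of the PAR bZIP family whose RNA swings more than that of most clock genes. Its TRAP values were 0, 11.7 and 79.2 FPKM at 9 a.m. and 138, 30.7 and 44.7 at 9 p.m. In the supernatant the 9 a.m. libraries gave 0.215, 0 and 3.02e-42, in effect listed at 0 in 2 of 3, and the 9 p.m. libraries 88.6, 24.9 and 22.9. All supernatant libraries at 9 p.m. were far above those at 9 a.m., while the TRAP groups overlapped through TRAP 9 a.m. replicate 3. The difference on the log2(FPKM + 1) scale was 5.16 in the supernatant (2.97 to 7.35, 4th by p of 11075 genes, limma adjusted p = 0.577). It was 2.55 in TRAP (-0.24 to 5.33, adjusted p = 0.941) and 3.85 in pool means (2.10 to 5.60, 5th by p of 11156, adjusted p = 0.800). In the supernatant Dbp passed the filter of a mean above 1 FPKM only through its 9 p.m. libraries. Its 9 a.m. values near 0 have little spread on this scale, so the interval and the rank by p rest in part on that floor. Since one group is at or near 0, the size depends on the pseudocount, and with 5 and 0.1 in place of 1 the supernatant difference was 3.08 and 7.98. In TRAP the difference was 4.04 without 9 a.m. replicate 3 and 0.88 without 9 a.m. replicate 1, the library at 0. Without pool 3 of 9 a.m., the difference in pool means was 4.58 with an adjusted p of 0.241, the lowest of any member under the alternatives.

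Dbp shares 539 of its 2993 exon bases with Sphk2, a sphingosine kinase gene on the other strand. Sphk2 had 15.6, 32.8 and 8.21 FPKM in the supernatant at 9 a.m. and 4.31, 2.99 and 6.07 at 9 p.m., and in TRAP 14.6, 17.0 and 10.3 at 9 a.m. and 2.26, 6.09 and 17.8 at 9 p.m. Sphk2 was thus lower in the supernatant at 9 p.m. in 3 of 3 libraries, opposite to Dbp, with a log2 fold change of -1.70 (-3.55 to 0.15, limma adjusted p = 0.970). Of all genes, 3.79% were lower there without overlap. The part of shared reads in the values of either gene was not tested.

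**Figure D3:**
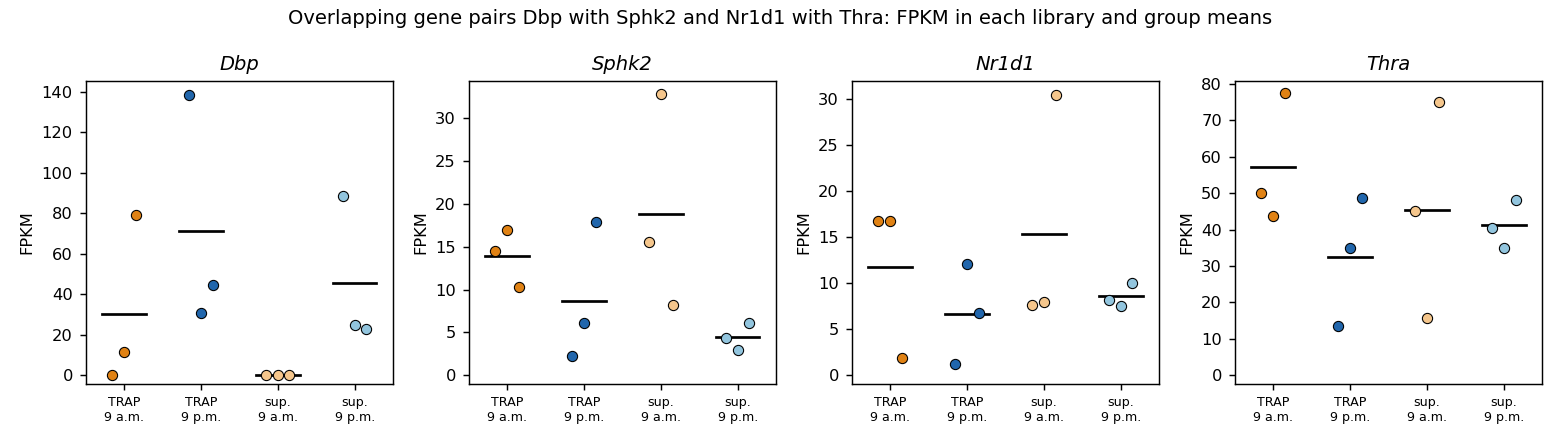
FPKM (linear axes, from 0) in each library for Dbp and the overlapping Sphk2, and for Nr1d1 and the overlapping Thra; points are libraries and lines are group means of 3. In the supernatant Dbp is at 22.9 to 88.6 at 9 p.m. where Sphk2 is at 2.99 to 6.07, and at or below 0.215 at 9 a.m. where Sphk2 is at 8.21 to 32.8.

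Ratios of members within 1 library were then taken. A ratio depends little on how a library was scaled where both values lie well above the added 1 FPKM. They describe the values above and have no test. The log2 ratio of Per2 to Arntl, with 1 FPKM added to each, was -0.98, 0.30 and -2.26 in TRAP at 9 a.m. and 3.31, 2.21 and 4.02 at 9 p.m. In the supernatant it was -1.14, -3.28 and 1.08 at 9 a.m. and 1.27, 4.01 and 1.52 at 9 p.m. Every 9 p.m. library of either fraction had a higher ratio than every 9 a.m. library, with mean differences of 4.16 in TRAP and 3.38 in the supernatant. For Dbp to Arntl the ratios were -1.91, 1.93 and 1.73 against 7.12, 4.24 and 5.52 in TRAP, and -2.87, -3.82 and -2.13 against 3.04, 4.70 and 1.84 in the supernatant. The times did not overlap within a fraction, and the mean differences were 5.04 and 6.13. Nr1d1 to Arntl differed by 1.83 in TRAP and 0.47 in the supernatant, with overlap in both. In TRAP at 9 p.m. the ratios of replicates 1 and 3 rest on an Arntl value listed at 0, as does that of replicate 2 in the supernatant. Such a ratio holds only the value of the other member and moves with the scaling of its library.

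**Figure D4:**
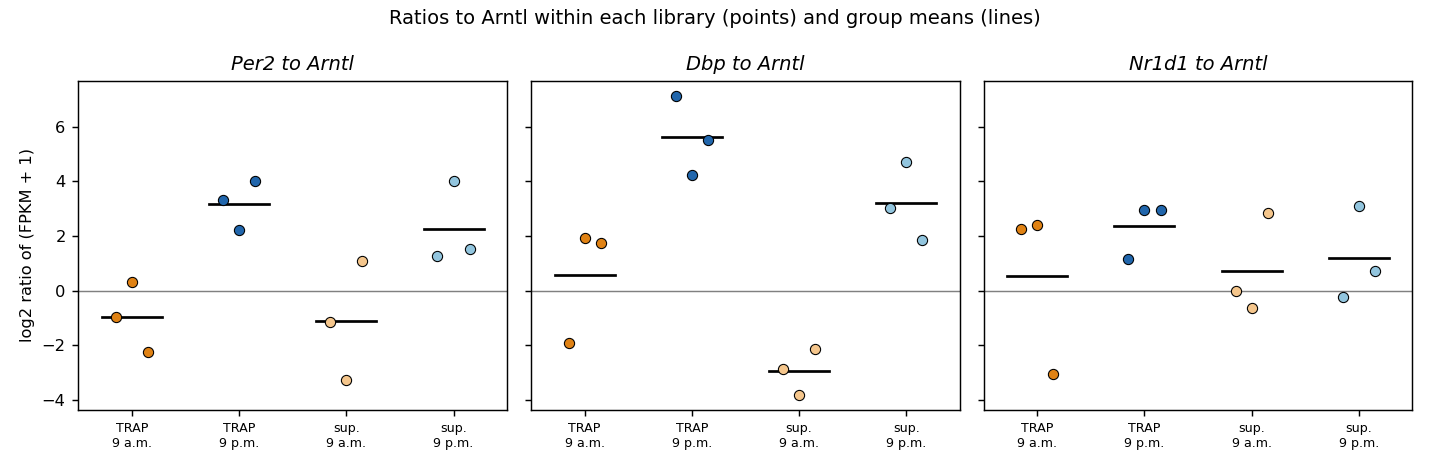
Log2 ratio of FPKM + 1 of Per2, Dbp and Nr1d1 to Arntl in each library (y axis) by group; points are libraries and lines are group means of 3. The Per2 ratio is at or below 1.08 in the 9 a.m. libraries and at or above 1.27 in the 9 p.m. libraries, while the Nr1d1 ratio overlaps between times.

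TRAP was set against the supernatant at each time to ask which clock transcripts were found more with RPL10A. At 9 a.m., 5 members were higher in TRAP and 5 lower, with a median log2 fold change of 0.05 against -0.20 over all genes, and 41.8% of all genes were above 0. No member was called (limma, a log2 fold change beyond 0.3 in either direction with an adjusted p under 0.05; 0.0463% of 10796 genes), 0 had an unadjusted p under 0.05 (background 1.61% higher and 2.89% lower), and 0 were without overlap (3.24% higher and 6.78% lower). The widest difference was that of Dbp, at 3.24 (-0.06 to 6.53, adjusted p = 0.886), where TRAP replicate 1 was itself listed at 0 and replicates 2 and 3 stood at 11.7 and 79.2 against at most 0.215 in the supernatant. It was 1.74 without TRAP 9 a.m. replicate 3. Without TRAP 9 a.m. replicate 1, 8 members were higher in TRAP. The other 9 members lay between -0.81 for Cry1 and 0.47 for Per3.

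At 9 p.m., 9 members were lower in TRAP than in the supernatant and Dbp was higher, with a median of -0.35 against -0.07 over all genes and 47.3% of genes above 0. Again no member was called (0.0275% of 10924 genes), and 0 had an unadjusted p under 0.05 (background 3.15% higher and 2.53% lower). Nr1d2 was the 1 member without overlap, lower in TRAP (6.99% of all genes), a count that became 2 under quantile normalization, with coding genes rescaled and without any 1 library other than supernatant 9 p.m. replicate 2, and 4 without that replicate. Its TRAP libraries reached at most 29.7 FPKM and its supernatant libraries at least 32.6, with a log2 fold change of -1.12 (-2.28 to 0.03, limma adjusted p = 0.818). Arntl followed with -1.81 (-4.29 to 0.66), Per2 with -0.90 (-2.28 to 0.47) and Nr1d1 with -0.64 (-2.69 to 1.41), and Dbp had 0.62 (-0.84 to 2.08). The value of Dbp was -0.0027 without TRAP 9 p.m. replicate 1, the library with the highest Dbp, and 1.24 without supernatant 9 p.m. replicate 1. Those of Per3, Cry2 and Nr1d1 were above 0 without some single libraries. At this time the marker sums of stroma, macrophages (0 to 3.21 FPKM in TRAP), erythrocytes and neurons (7 genes, 7.38 to 11.02 FPKM against 1.07 to 5.54 in TRAP) were also higher in the supernatant, and their part was not tested.

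**Figure D5:**
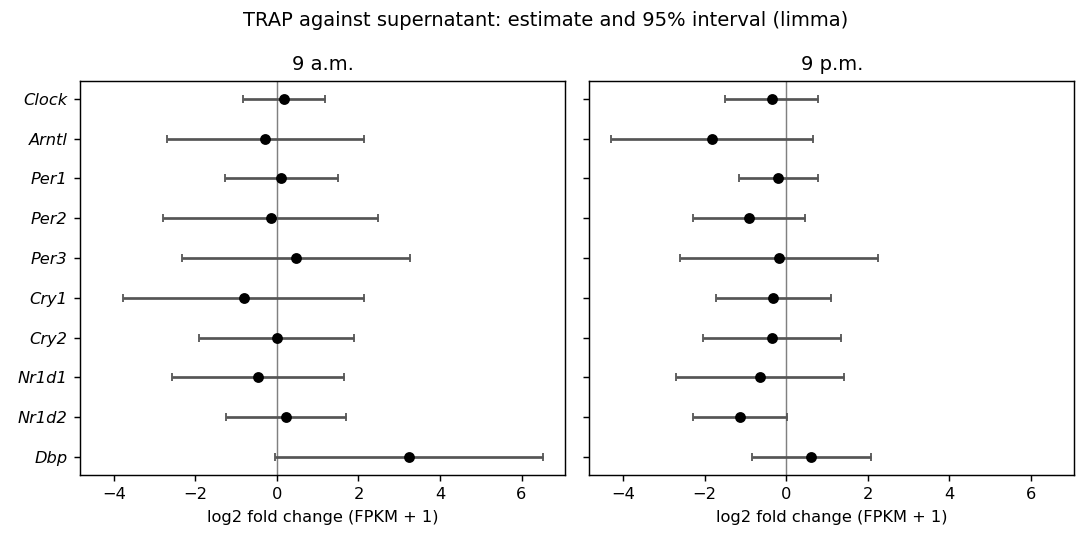
Log2 fold change of FPKM + 1 in TRAP against the supernatant (x axis) for each member at 9 a.m. and at 9 p.m., with 95% intervals from limma. Estimates scatter on both sides of 0 at 9 a.m., with Dbp at 3.24, and 9 of 10 lie below 0 at 9 p.m.; every interval covers 0.

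The interaction of time and fraction asks whether the change from 9 a.m. to 9 p.m. differed between TRAP and supernatant. It was below 0 for 9 of 10 members (7 to 10 when 1 library was left out), that is, the 9 p.m. minus 9 a.m. difference was lower in TRAP, with a median of -0.59 against 0.11 over all genes, of which 53.8% were above 0. Dbp had -2.62 (-6.28 to 1.05), Arntl -1.53 (-4.93 to 1.87) and Nr1d2 -1.34, and Cry1 was above 0 at 0.50 (-2.81 to 3.81). No member was called (0.00896% of 11156 genes) and 0 had an unadjusted p under 0.05 (background 2.64% higher and 1.2% lower), with limma adjusted p of 0.988 or above. All of these intervals cover 0. Their lower bounds reached down to -6.28 (Dbp), and their upper bounds lay between 0.42 (Nr1d2) and 3.81 (Cry1).

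Other genes of the clock, 26 in the table, were counted in the same fits. At 9 p.m. 15 of 24 tested were higher in TRAP (background 56.9%), 13 of 24 in the supernatant (51.8%) and 14 of 23 in pool means (56.2%), and 0 were called. At an unadjusted p under 0.05 there were 1, 2 and 4, all higher, where the background was 2.95%, 1.79% and 3.61% of genes higher. Tef, which encodes a D-box activator of the same family as DBP, had 5.90, 6.33 and 16.7 FPKM in the supernatant at 9 a.m. and 68.8, 85.2 and 49.7 at 9 p.m., and in TRAP 16.4, 22.2 and 36.3 at 9 a.m. and 44.5, 36.2 and 43.7 at 9 p.m. Its supernatant libraries did not overlap between times (4.9% of all genes were higher there without overlap), and its TRAP libraries overlapped by a margin of less than 0.1 FPKM. The log2 fold change was 2.80 in the supernatant (1.60 to 4.01, limma adjusted p = 0.577) and 0.78 in TRAP (-0.32 to 1.88, adjusted p = 0.941), and the interaction was -2.03 (-3.55 to -0.50, adjusted p = 0.988). The remaining D-box factors, the activator Hlf and the repressor Nfil3, had -0.45 and -1.94 in TRAP and -0.88 and 0.13 in the supernatant.

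Bhlhe40, an E-box repressor induced by CLOCK and ARNTL, had 6.84, 8.37 and 0 FPKM in TRAP at 9 a.m. and 23.6, 25.3 and 14.8 at 9 p.m., without overlap (log2 fold change 2.37, 0.15 to 4.60, limma adjusted p = 0.941). Of all genes, 5.68% were higher in TRAP at 9 p.m. without overlap. In the supernatant the change of Bhlhe40 was 0.51 (-1.38 to 2.39). Ccrn4l, which encodes Nocturnin, had 0, 2.11 and 3.88 FPKM in the supernatant at 9 a.m. and 5.88, 30.2 and 10.6 at 9 p.m. (2.45, 0.02 to 4.88, adjusted p = 0.970), while in TRAP its change was -0.44 (-2.18 to 1.29). Tspan4, a tetraspanin gene, had 2.28 in pool means (0.32 to 4.24, adjusted p = 0.913). Npas2, a paralog of Clock named after its values were seen, was lower at 9 p.m. in TRAP without overlap (-2.04, -4.50 to 0.42, limma adjusted p = 0.941), as were 2.93% of all genes. In the supernatant it was -0.51 (-3.26 to 2.25) and in pool means -1.27 (-2.97 to 0.42), with overlap in both. The kinases and ubiquitin ligases that time PER and CRY decay were mixed, with 4 of 7 higher in TRAP and 2 of 7 in the supernatant, and 0 at an unadjusted p under 0.05.

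The 12 libraries share pool numbers between fractions and differ in how many genes they detect. Across them, Per1 and Per2 had the most similar profiles among the members (Pearson r = 0.83 on log2(FPKM + 1)), followed by Per1 with Dbp (0.75) and Per2 with Dbp (0.67). The most opposed were Cry2 and Clock (-0.71) and Nr1d1 and Dbp (-0.64), and Per2 with Arntl had -0.35. Among 11156 genes, those most like Per2 were Gss (0.90), Wdfy3 (0.89) and Pggt1b (0.88), those most like Arntl were Tmed8, Mansc4 and Il13ra1 (0.91 each), and those most like Dbp were Atf1 (0.94), Copa (0.90) and 6820408C15Rik (0.84). These correlations are a description of 12 points. By Spearman correlation, 1 of the 3 genes for Per2, 2 of 3 for Arntl and 1 of 3 for Dbp were again in the first 3.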

How the data were processed

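RNA of 12 libraries was sequenced (SMARTer Pico, ribosomal RNA depleted, 50-nt single-end reads). Per the methods and labels, the authors aligned reads to mm10 with STAR 2.4.0 and deposited FPKM from Cufflinks tools, in which reads are scaled to transcript length and library size. Not given in the sources used here are the strand setting, the annotation and the Cufflinks version. The low FPKM values showed no steps of whole reads, so depth and its counting error are unknown and no count test was run. MicroRNA genes held 31.9% to 75.4% of summed FPKM per library. Their share of the mapped reads, to which FPKM is scaled, is unknown. Of 24354 names, 27 that had turned into dates were left out.

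Groups came from the labels. Tests were made on log2(FPKM + 1) with limma 3.58.1 (R 4.3.3; empirical Bayes with trend), where a gene averaged more than 1 FPKM in the libraries compared, adjusted by Benjamini-Hochberg over all of them, with 95% intervals; fold changes of low genes are understated on this scale. A call was a log2 fold change beyond 0.4 in either direction (0.3 for fractions) with an adjusted p under 0.05. Pool means averaged the TRAP and supernatant library of the same number and time. The code was tested on simulated data, in which the shifted genes held no listed zeros, so members listed at 0 were not covered. Alternatives covered the pseudocount, filter, scaling, variance model, one fit of all libraries, replicate block and left-out libraries. The TRAP and supernatant library of the same time and number carry one animal number in the labels, and were treated as a pair. The methods name no pairing, and their deviations from the group means did not run together (correlations -0.0751 to -0.0144). Libraries of different times share only a number. P-values between times measure the spread between 3 pools of mice per group. Those between fractions and of the interaction measure the spread between libraries, since these main fits left the pairing out. The replicate block put the pairing in. Loci and exon overlaps came from GENCODE M21, and promoters from RefSeq. Plots used Python 3.11.15 and matplotlib 3.10.9. The members and lists were chosen with earlier results of these data known. Named were the 10 members, genes of the other lists with an unadjusted p under 0.05, genes whose exons overlap a member, and for Per2, Arntl and Dbp the 3 genes of highest Pearson correlation; Npas2, Hlf and Nfil3 were added after their values were seen, and 1 gene that the rule names is not reported here.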

Additional observations from a re-analysis of the deposited data

How the results depend on the processing

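In 100 of 100 refits over the 6 comparisons, 0 members were called, and the lowest adjusted p of a member was 0.241 (limma). With the replicate block, 0 members were called as well. Of 997 refitted fold changes of members, 50 had the opposite sign, each with 95% intervals that cover 0 before and after: 0 of 150 in pool means, 3 of 160 between times in the supernatant, 8 of 159 between times in TRAP, 20 of 159 between fractions at 9 a.m., 7 of 159 at 9 p.m., and 12 of 210 in the interaction. Of these, 6 came without leaving out a library: Nr1d2 between times in TRAP was -0.027 under quantile normalization and -0.22 with coding genes rescaled, Cry2 between fractions at 9 a.m. was 0.017 with a pseudocount of 5, 0.47 under quantile normalization and 0.038 with coding genes rescaled, and Per3 between fractions at 9 p.m. was 0.073 with a pseudocount of 0.1. The others came with 1 library left out. Between times these values then ran in TRAP from -0.10 to 1.22 for Cry2, -1.54 to 0.054 for Nr1d1 and -0.27 to 0.42 for Nr1d2, and in the supernatant from -1.67 to 0.059 for Arntl, -0.31 to 1.45 for Cry1 and -0.82 to 0.11 for Nr1d1. Between fractions at 9 a.m. they ran from -1.21 to 0.22 for Arntl, -0.16 to 0.36 for Clock, -1.92 to 0.37 for Cry1, -0.51 to 0.26 for Cry2, -0.91 to 0.40 for Nr1d1, -0.19 to 0.45 for Nr1d2, -0.063 to 0.37 for Per1, -0.84 to 0.50 for Per2 and -0.63 to 1.08 for Per3. At 9 p.m. they ran from -1.11 to 0.21 for Cry2, -0.0027 to 1.24 for Dbp, -1.19 to 0.083 for Nr1d1 and -1.38 to 0.75 for Per3, and in the interaction from -0.68 to 1.60 for Cry1, -1.10 to 0.22 for Cry2, -1.04 to 0.55 for Nr1d1 and -1.85 to 0.46 for Per3. The ratios depended on the pseudocount. With 0.1 and 5, the 9 p.m. minus 9 a.m. difference of Per2 to Arntl was 6.83 and 2.14 in TRAP and 4.98 and 1.97 in the supernatant, that of Nr1d1 to Arntl was 4.0007 and 0.71 in TRAP and 1.47 and 0.02 in the supernatant, and that of Dbp to Arntl was 8.45 and 2.89 in TRAP and 9.98 and 3.51 in the supernatant. Leaving out 1 library at a time, Per2 to Arntl lay between 3.52 and 4.80 in TRAP and between 2.30 and 4.48 in the supernatant, and Dbp to Arntl between 3.80 and 5.74 and between 5.38 and 6.81. Nr1d1 to Arntl lay between 0.04 (without TRAP 9 a.m. replicate 3) and 2.77 in TRAP and between -0.48 and 1.53 in the supernatant. Over all genes, calls between fractions at 9 a.m. went from 5 lower to 10 lower without TRAP 9 a.m. replicate 2 and to 1 lower with coding genes rescaled or with no trend. At 9 p.m. they went from 3 lower to 0 with no filter, 1 with no trend or one fit of all libraries and 5 under quantile normalization, and 5 genes were higher without supernatant 9 p.m. replicate 3. Between times they went from 0 to 4 higher in TRAP without TRAP 9 a.m. replicate 2 and from 1 to 4 lower in the supernatant without supernatant 9 p.m. replicate 3. In the interaction they were 0 to 2. Quantile normalization moved the median of all genes in TRAP between times from 0.16 to 0.01, and rescaled coding genes moved it to -0.04. With 3 pools a group and unknown depth, intervals of the members span up to several log2 units, and differences inside them were not detectable here.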

Other observations

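Glucocorticoids are a daily signal that sets peripheral clocks, and in the mouse they are highest around the start of the dark phase. The data hold no hormone levels, and a part of glucocorticoids in the values below was not tested. Of 7 genes that the glucocorticoid receptor induces in many tissues, 7 were higher at 9 p.m. in TRAP and 6 in the supernatant and in pool means, with median log2 fold changes of 0.59, 0.93 and 0.76. In TRAP the 7 include Pdk4 at 0.002. The counts also include Zbtb16, which passed the filter of a mean above 1 FPKM only through its 9 p.m. libraries, so its direction was fixed by the filter. Over all genes 56.9%, 51.8% and 56.2% were above 0. None was called (limma), and at an unadjusted p under 0.05 there were 0, 2 and 2, all higher (2.95%, 1.79% and 3.61% of all genes were higher at that p). Fkbp5, a chaperone that dampens the receptor, had 2.43, 1.07 and 0 FPKM in TRAP at 9 a.m. and 10.4, 5.92 and 8.35 at 9 p.m., and in the supernatant 4.39, 4.77 and 2.90 at 9 a.m. and 15.3, 31.0 and 7.28 at 9 p.m. The times did not overlap in either fraction (5.68% of all genes were higher without overlap in TRAP and 4.9% in the supernatant), and the log2 fold change in pool means was 1.98 (0.53 to 3.42, limma adjusted p = 0.853).

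Zbtb16, a zinc finger factor, had supernatant values of 0, 0.114 and 0 FPKM at 9 a.m., and of 6.89, 15.2 and 3.84 at 9 p.m. In TRAP it was listed at 0 in all 3 libraries at 9 a.m. and reached 7.48, 0.145 and 0.944 at 9 p.m. Sgk1, a kinase that regulates ion transport, had 38.4, 117 and 103 FPKM in the supernatant at 9 a.m. and 166, 133 and 150 at 9 p.m., without overlap (0.93, 0.03 to 1.84, limma adjusted p = 0.970). Of all genes, 4.9% were higher there without overlap. In TRAP its change was 0.59 (-0.28 to 1.46), with overlap. These genes were chosen with earlier results of these data known.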
